A study of Mus musculus with 9 samples.

Results

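The miR-29 family was examined as 5 mature miRNAs, mmu-miR-29a-3p, mmu-miR-29b-3p, mmu-miR-29c-3p, mmu-miR-29a-5p and mmu-miR-29c-5p (written below without the species prefix), taken by name from the 1448 miRNAs listed in the count table. All 5 were listed, and all 5 reached the minimum for testing, which was 10 reads in 3 or more of the 9 libraries. The libraries came from the hippocampus of adult male C57BL/6J mice. The saline group (3 libraries) received 0.9% saline only. The LPS group (3 libraries) received 0.12% saline and 1 mg/kg LPS, injected once into the peritoneum. LPS is a bacterial endotoxin used to induce neuroinflammation. The LPS + GAS group (3 libraries) received the same LPS dose and 100 mg/kg gastrodin (GAS), a phenolic glucoside, 1 h after LPS, although the methods also have GAS given together with LPS. The labels do not say that each library is a separate animal, so the p-values measure the spread between these libraries.

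MiRNAs are small RNAs that bind target mRNAs mainly through bases 2 to 8, the seed, and lower their stability or translation. Each is cut from a hairpin whose arms can give a 5p and a 3p product, and the arms are usually loaded into the silencing complex at unequal rates. The miR-29 3p products are known for repressing collagens and other extracellular matrix genes, the DNA methyltransferases Dnmt3a and Dnmt3b and pro-apoptotic BH3-only genes. In the brain they rise as neurons mature and are abundant in adult neurons and astrocytes.

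The mature sequences are shown because the family is defined by its seed, given in capitals, and because reads of its members are told apart by few other bases.
miR-29a-3p: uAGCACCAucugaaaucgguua
miR-29b-3p: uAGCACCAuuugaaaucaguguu
miR-29c-3p: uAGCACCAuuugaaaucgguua
miR-29a-5p: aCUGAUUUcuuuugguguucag
miR-29c-5p: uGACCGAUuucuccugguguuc
The seed AGCACCA was held by 3 of the 1448 listed miRNAs, the 3 miR-29 3p products themselves. The seeds of miR-29a-5p and miR-29c-5p were each held by no other listed miRNA, so the 5p members share a seed neither with the 3p members nor with each other. MiR-29a-3p differs from miR-29c-3p by the substitution C10U alone, counting bases from 1 at the 5′ end. MiR-29b-3p differs from miR-29c-3p by A18G, G21U and U22A and is longer, at 23 bases against 22. All 3 of the 3p members and miR-29c-5p begin with U, as did 39.8% of the 628 miRNAs tested, whereas miR-29a-5p begins with A.

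The members come from 4 hairpins in a pair of clusters. Mir29a (chr6:31062660-31062747) and Mir29b-1 (chr6:31063023-31063093) lie on the minus strand of chromosome 6 of GRCm38.p6, with 275 bases between them. Mir29b-2 (chr1:195037040-195037120) and Mir29c (chr1:195037547-195037634) lie on the plus strand of chromosome 1, with 426 bases between them. Both chromosome 1 hairpins lie within an exon of the non-coding host gene A330023F24Rik and opposite an annotated UTR of Cd46. Mir29a overlaps no other annotated gene, and Mir29b-1 overlaps an exon of the lincRNA Gm27019 by 2 bases. MiR-29b-3p has the same sequence from either cluster, and the table counts it once, under the chromosome 1 hairpin, so its reads cannot be assigned to a cluster.

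The libraries held 10119758 to 11457656 miRNA reads each. Levels are given in CPM, the share of the library's miRNA reads scaled by TMM factors. These factors ran from 0.914 to 1.19, the highest in LPS replicate 2. A list of neuronal miRNAs was used to check for neural tissue, which does not test the hippocampus label itself. All 5 of that list (miR-124-3p, miR-9-5p, miR-128-3p, miR-137-3p and miR-138-5p) were detected, summing to between 88693 and 128983 CPM in every library. Markers of 5 other cell sources were also summed. The summed level of the red blood cell list (5 of 5 detected, with equal values for miR-486a-5p and miR-486b-5p) was 2065 to 4317 CPM in the saline group, 2189 to 3274 CPM with LPS and 4606 to 6222 CPM with LPS + GAS, so that the LPS + GAS libraries lay above all others. In LPS + GAS vs LPS, 4 of these 5 miRNAs had an unadjusted p under 0.05, and none was called. The choroid plexus and ependyma list (10 of 10 detected) summed to 9313 to 29292, 9371 to 22097 and 11962 to 56476 CPM in the same groups, which overlapped. Of its 9 tested miRNAs, all 9 had values below 0 in LPS vs saline (median log2 fold change −0.56) and all 9 above 0 in LPS + GAS vs LPS (median 1.70), and none was called. The oligodendrocyte list (2 miRNAs) summed to 1383 to 4553 CPM, with a median log2 fold change of −0.61 for LPS vs saline, 0.42 for LPS + GAS vs LPS and no call. The microglia and leukocyte list (4) summed to 2569 to 6226 CPM and the vascular list (4) to 16408 to 22894 CPM over all libraries. MiR-150-5p (mean 4795 CPM) made up most of the former sum. MiR-142a-3p, miR-142a-5p and miR-223-3p had means of 14.6, 13.6 and 8.39 CPM. In LPS vs saline, 2 of these 4 were above 0 and 2 below. In LPS + GAS vs LPS all 4 were above 0 (median 0.27, miR-223-3p highest at 1.11, standard error 0.41). There, 1 had an unadjusted p under 0.05 and none was called. No miRNA of these lists had a mean of 0. Their part in the values of the miR-29 family was not tested.

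MiR-29a-3p was the leading member. Its read counts were 37859, 46433 and 43797 for saline replicates 1, 2 and 3, 46029, 38913 and 44799 for the same replicates under LPS, and 39062, 42043 and 50801 under LPS + GAS. It ranked between 35 and 42 among all miRNAs of a library, with a mean of 4046 ± 402 CPM under saline, 4107 ± 758 CPM under LPS and 4264 ± 624 CPM under LPS + GAS (SD, n = 3 each). The groups overlapped, and the lowest library in CPM was LPS replicate 2, which had the highest TMM factor. By share of the library's reads without this scaling, saline replicate 1 (0.330%) and LPS + GAS replicate 1 (0.365%) were below LPS replicate 2 (0.385%). Because whole tissue was sequenced, fewer cells of a type and less of a miRNA per cell cannot be told apart in any of these levels.

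MiR-29b-3p and miR-29c-3p, with the same seed, stood at about the same level as each other. Read counts of miR-29b-3p were 16077, 16777 and 10847 under saline, 15342, 14045 and 11500 under LPS and 16264, 12018 and 15542 under LPS + GAS. This gave 1371 ± 242, 1283 ± 211 and 1410 ± 169 CPM (SD, n = 3 each), with saline replicate 3 the lowest of the 9. Those of miR-29c-3p were 13599, 15627 and 12561 under saline, 15178, 12527 and 14151 under LPS and 13652, 14422 and 16624 under LPS + GAS, which gave 1316 ± 59.8, 1325 ± 250.0 and 1445 ± 164 CPM. In CPM its saline libraries lay close together, and its lowest and highest libraries were LPS replicate 2 and LPS + GAS replicate 3. By share of the library's reads, saline replicates 1 and 3 (both 0.119%) were below LPS replicate 2 (0.124%). MiR-29b-3p was above miR-29c-3p in 5 of 9 libraries, with a ratio of 0.813 to 1.19, so that the order of these neighbours was not settled by their spread.

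The 5p members were lower. Read counts of miR-29c-5p were 1357, 1540 and 1058 under saline, 1228, 1599 and 1074 under LPS and 1313, 1214 and 984 under LPS + GAS, or 124 ± 15.5, 121 ± 12.4 and 113 ± 16.1 CPM (SD, n = 3 each). Those of miR-29a-5p were 84, 76 and 53 under saline, 73, 76 and 64 under LPS and 62, 80 and 67 under LPS + GAS, or 6.70 ± 1.34, 6.67 ± 0.518 and 6.78 ± 1.19 CPM. The groups overlapped for both. With so few reads, the spread of miR-29a-5p within groups, 0.20 on the scale of log2(CPM + 1), was close to the 0.17 that read counting alone gives. The latter is on the scale of log2 reads without the added 1, so at this low level the values compare only roughly. For miR-29a-3p these values were 0.22 and 0.0070. In every library the order of levels was miR-29a-3p, then miR-29b-3p or miR-29c-3p, then miR-29c-5p, then miR-29a-5p.

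**Figure D1:**
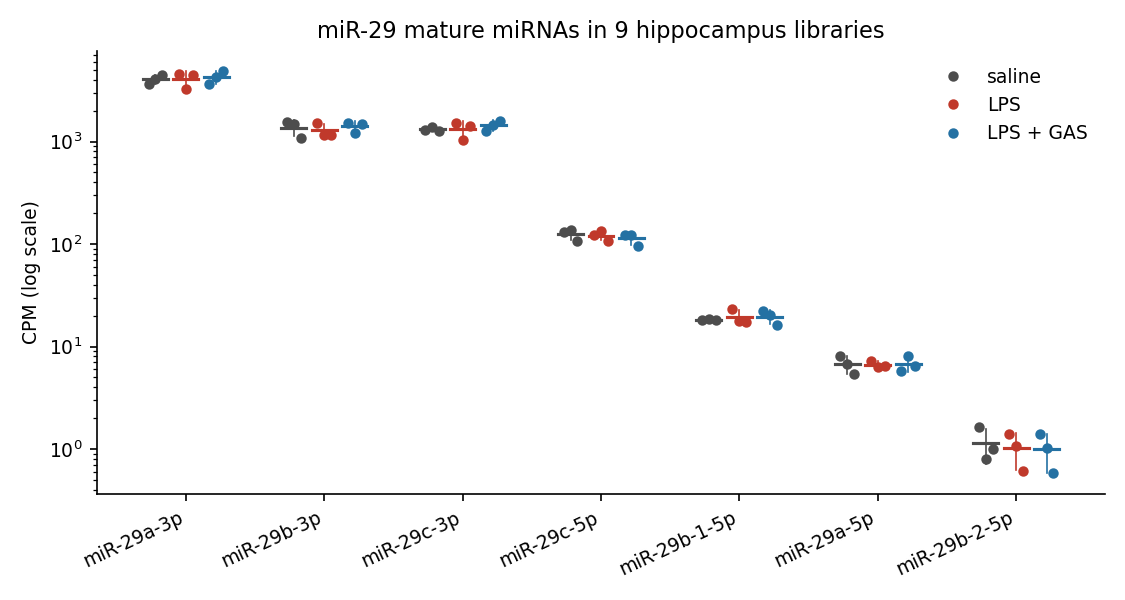
CPM on a log scale for the 5 members and the 2 other 5p arms of the family in each of the 9 libraries, with points for libraries, a horizontal bar for the mean of 3 and a vertical line for the SD. The 3p members sat at 1041 CPM or above in every library and miR-29a-5p at 8.09 CPM or below, and the groups overlapped for every miRNA shown.

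The 3 members with the shared seed took 0.589% to 0.789% of all miRNA reads in a library. Of these reads, miR-29a-3p held 60.3% ± 2.98 (SD, n = 9), miR-29b-3p 19.9% ± 2.89 and miR-29c-3p 19.8% ± 0.662. The share of miR-29c-3p was the steadiest, at 18.7% to 21.1% over all libraries, while that of miR-29b-3p ran from 16.1% to 23.8%. Summed over the 3 members, the level was 6732 ± 263 CPM under saline, 6715 ± 1136 CPM under LPS and 7119 ± 795 CPM under LPS + GAS (SD, n = 3 each), and the groups overlapped.

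The arms were used unequally, and much more so for miR-29a than for miR-29c. Reads of miR-29a-3p exceeded those of miR-29a-5p by 451-fold to 826-fold in the 9 libraries, with a median of 630.0. Reads of miR-29c-3p exceeded those of miR-29c-5p by 7.83-fold to 16.9-fold, with a median of 11.9. These ranges did not overlap. Among 261 miRNA names with at least 10 reads on each arm over the 9 libraries, 125 had more 3p than 5p reads. The 3p to 5p ratio of miR-29a ranked 15 from the top and that of miR-29c 69, both given as a description of these libraries.

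**Figure D2:**
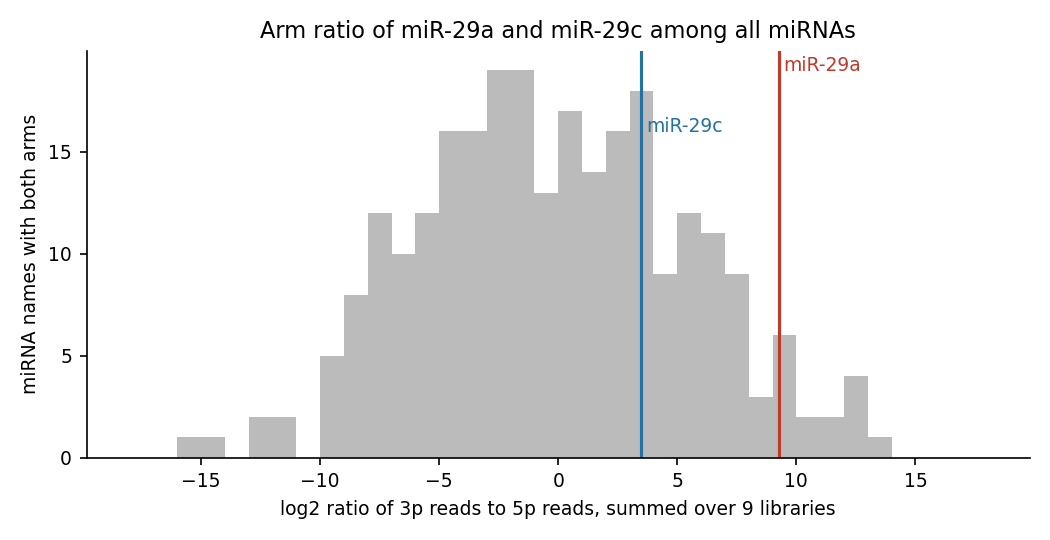
Histogram of the log2 ratio of 3p to 5p reads, summed over the 9 libraries, for 261 miRNA names with both arms. The lines mark miR-29a (9.26) and miR-29c (3.50), and the bulk of the names lies to their left.

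The other 5p arms of the family separate the hairpins that share miR-29b-3p. MiR-29b-1-5p, from the chromosome 6 cluster, had 170 to 236 reads in a library, and miR-29b-2-5p, from the chromosome 1 cluster, had 6 to 17. MiR-29b-1-5p thus made up 91.8% to 96.6% of the reads on these arms. This says nothing of how the 3p reads divide between the hairpins, since the arms of a hairpin are kept at different rates. Within the chromosome 6 cluster miR-29b-1-5p exceeded miR-29a-5p by 2.26-fold to 3.81-fold. Within the chromosome 1 cluster miR-29c-5p exceeded miR-29b-2-5p by 79.8-fold to 179-fold. The 5p products of neighbouring hairpins therefore stood at unlike levels in every library.

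The comparison of the LPS group with the saline group addressed the response of the hippocampus to endotoxin. The 5 members had log2 fold changes between −0.095 and 0.022, and 0 of 5 passed the thresholds, an adjusted p no higher than 0.05 together with a log2 fold change of 1 or more in either direction. Over all miRNAs, edgeR's quasi-likelihood test called 0 of 628 (0%), and at an unadjusted p under 0.05 there were 15 (2.39%), with no member among them. Of all miRNAs, 3.82% had no overlap between these groups, and 0 of the 5 members did. MiR-29b-3p had the largest fitted change, −0.095 (standard error 0.20), and miR-29a-3p and miR-29c-3p had 0.022 (standard error 0.19) and 0.010 (standard error 0.18). The values of miR-29a-5p and miR-29c-5p were −0.0063 (standard error 0.22) and −0.037 (standard error 0.18). The lowest adjusted p of a member was 0.992 by this test. The 95% intervals of the fold change ran from 0.760 to 1.36 for miR-29a-3p, from 0.692 to 1.27 for miR-29b-3p and from 0.763 to 1.33 for miR-29c-3p. Without LPS replicate 2, the library with the lowest miR-29a-3p and miR-29c-3p in CPM, these members had log2 fold changes of 0.20 and 0.19.

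LPS + GAS was set against LPS to ask what GAS changed in mice that received LPS. Again 0 of 5 members passed, where edgeR's quasi-likelihood test called 0 of 628 (0%). Of all miRNAs, 23 (3.66%) had an unadjusted p under 0.05, with no member among them, and 0 of 5 members lacked overlap between groups against 8.6% of all miRNAs. The 3p members had values above 0, at 0.054 for miR-29a-3p (standard error 0.19), 0.14 for miR-29b-3p (standard error 0.20) and 0.13 for miR-29c-3p (standard error 0.18), all under their standard error. MiR-29a-5p had 0.022 (standard error 0.22) and miR-29c-5p −0.094 (standard error 0.18). The lowest adjusted p of a member was 0.975 by the same test. The fold change of miR-29b-3p had a 95% interval of 0.812 to 1.49 and that of miR-29c-5p of 0.703 to 1.25. Without LPS replicate 2 the log2 fold change of miR-29a-3p turned to −0.077 and that of miR-29c-3p to −0.0065.

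Between the LPS + GAS group and the saline group, whose libraries also enter the comparisons with LPS above, 0 of 5 members passed. Over all miRNAs, edgeR's quasi-likelihood test called 1 of 628 (0.159%). There were 21 miRNAs at an unadjusted p under 0.05 (3.34%), with no member among them, and 7.32% of all miRNAs and 0 of 5 members had no overlap between groups. MiR-29c-3p had the largest value, 0.14 (standard error 0.18), with a 95% interval of the fold change from 0.832 to 1.45, and it was above the saline mean in 2 of 3 LPS + GAS libraries. MiR-29c-5p had −0.13 (standard error 0.18, interval 0.685 to 1.22), and none of the LPS + GAS libraries was above the saline mean in CPM. However, LPS + GAS replicates 1 and 2, at 122.5 and 122.8 CPM, lay close to that mean of 124 CPM. MiR-29a-3p, miR-29b-3p and miR-29a-5p had 0.076, 0.041 and 0.016. The lowest adjusted p of a member was 0.998 by the same test. DESeq2's Wald test and limma-voom also gave 0 members at an unadjusted p under 0.05 in each of the 3 comparisons. The median absolute log2 fold change of the members was 0.022, 0.094 and 0.076 in the 3 comparisons, beside 0.16, 0.19 and 0.16 over all miRNAs tested. The standard errors of the members were 0.18 to 0.22, below the median of 0.28 over all miRNAs in each comparison. These medians were therefore not matched for precision.

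**Figure D3:**
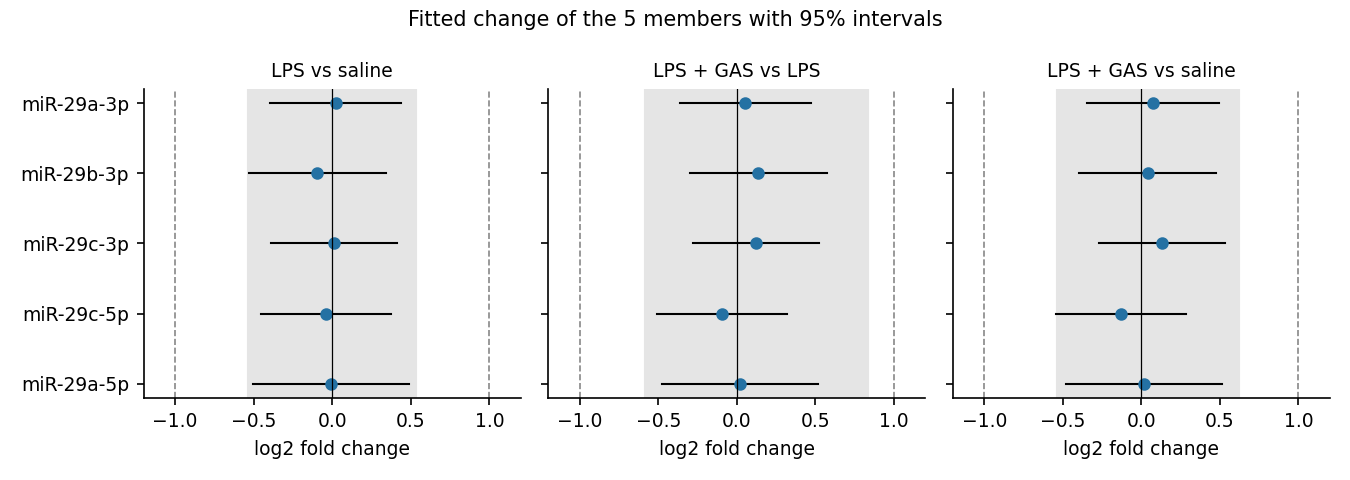
Fitted log2 fold change (points) and 95% interval (lines) of the 5 members in each comparison, with the range from the 5th to the 95th percentile of the 628 fitted values in grey and the threshold of 1 in either direction dashed. Every interval includes 0 and stays inside the dashed lines.

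The proportions of the members to each other were then compared, since a ratio of reads within a library needs no scaling. Reads of miR-29c-3p were 35.9%, 33.7% and 28.7% of those of miR-29a-3p under saline, 33.0%, 32.2% and 31.6% under LPS, and 34.9%, 34.3% and 32.7% under LPS + GAS, a range over which the groups overlapped. The proportion of miR-29b-3p to miR-29a-3p ran more widely, from 24.8% to 42.5% over the 9 libraries, with the groups overlapping. The ratio of miR-29c-3p to miR-29c-5p was 10.02, 10.1 and 11.9 under saline, 12.4, 7.83 and 13.2 under LPS and 10.4, 11.9 and 16.9 under LPS + GAS. Over 12 tests (4 ratios in 3 comparisons), the lowest p of the exact two-sided permutation test was 0.2, reached for miR-29c-3p to miR-29c-5p in LPS + GAS vs saline and for miR-29c-3p to miR-29a-3p in LPS + GAS vs LPS. It was 0.982 after Benjamini-Hochberg adjustment in both. The smallest p that 3 libraries against 3 allow is 0.1. This test takes no account of replicate numbers. Between same-numbered libraries, the ratio of miR-29c-3p to miR-29c-5p was higher in LPS + GAS than in saline in 3 of 3 pairs. MiR-29c-5p was lower in 3 of 3, at 122.5 against 129.6, 122.8 against 136.2 and 94.8 against 106.6 CPM. By share of the library's reads without TMM scaling, it was higher in the first of these pairs (0.0123% against 0.0118%). MiR-29a-3p was higher in each of the 3 pairs, at 3646 against 3616, 4253 against 4106 and 4894 against 4414 CPM. By share without this scaling, miR-29a-3p was lower in the second pair (0.411% against 0.446%). MiR-29b-3p, miR-29c-3p and miR-29a-5p went both ways over the pairs in CPM. The labels do not say that same-numbered libraries are pairs, and these agreements carry no test. With the replicate number as a block the log2 fold change of miR-29c-5p was −0.13 (standard error 0.16, adjusted p = 0.998 by edgeR's quasi-likelihood test).

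From library to library, miR-29a-3p and miR-29c-3p varied together, while their hairpins lie on different chromosomes. Over the 9 libraries Pearson's r of log2(CPM + 1) was 0.875 (exact permutation p = 0.00168, 0.0168 after adjustment over 10 pairs of members) and Spearman's rho was 0.783 (exact permutation p = 0.0172, adjusted 0.0861). Without saline replicate 1 and LPS replicate 2, the libraries farthest from the median of miR-29a-3p, r was 0.736. It was 0.887 for deviations from the group means, and 0.830 for shares of the library total without TMM scaling. These 2 members differ by C10U alone, and whether reads were shared between them in counting was not tested.

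MiR-29b-3p, which has a hairpin beside each of the others, followed neither to the same degree. Its r was 0.019 with miR-29a-3p (exact permutation p = 0.961) and 0.394 with miR-29c-3p (exact permutation p = 0.308). The difference between these correlations and that of miR-29a-3p with miR-29c-3p was not tested. MiR-29a-3p and miR-29c-5p had r = −0.728 (exact permutation p = 0.0252, adjusted 0.126), which was −0.329 without TMM scaling and so changed with the scaling. Of the 10 pairs, miR-29a-3p with miR-29c-3p was the only pair with an adjusted p of r under 0.05, and no pair had an adjusted p of rho under 0.05.

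**Figure D4:**
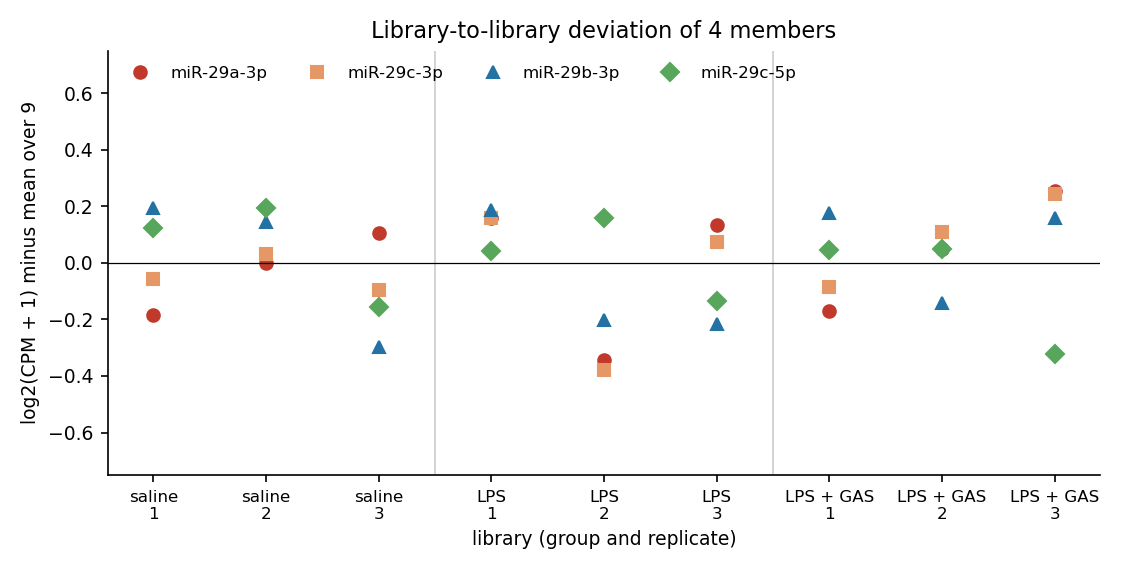
Deviation of log2(CPM + 1) from its mean over the 9 libraries for 4 members, by group and replicate. MiR-29a-3p and miR-29c-3p lie together, both lowest in LPS replicate 2 (−0.35 and −0.38) and highest in LPS + GAS replicate 3 (0.25 and 0.24), while miR-29b-3p and miR-29c-5p depart from them.

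The miRNAs most like each 3p member were found by the root mean square difference of their centred log2(CPM + 1) over the 9 libraries, among 184 others with a mean of at least 100 CPM. For miR-29a-3p the closest was miR-29c-3p (0.089), followed by miR-872-5p (0.12) and miR-181c-5p (0.12), beside a median of 0.29 over the 184. For miR-29c-3p miR-29a-3p was the closest, then miR-7a-1-3p (0.11) and miR-181d-5p (0.12). For miR-29b-3p they were miR-301a-3p (0.090), miR-27b-3p (0.16) and miR-497a-5p (0.16), and its seed partners ranked 12 (miR-29c-3p) and 47 (miR-29a-3p). The points share libraries and scaling, and these likenesses carry no test.

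Further miRNAs were examined as a list, which was not chosen by targets shared with the miR-29 family. Of 17 miRNAs known from work on extracellular matrix and fibrosis, 16 were tested and 0 were called in any comparison by edgeR's quasi-likelihood test, with 1 at an unadjusted p under 0.05 in LPS + GAS vs LPS and 0 in the others. Their median log2 fold change in LPS vs saline was −0.10 (7 above 0 and 9 below), beside −0.045 over all miRNAs. For LPS + GAS vs LPS it was 0.066 (8 and 8), beside 0.0030. For LPS + GAS vs saline it was −0.0070 (7 and 9), beside −0.028. In LPS + GAS vs LPS, miR-199a-3p had the highest value of this list, 0.90 (standard error 0.41), and miR-30d-5p the lowest, −0.51 (standard error 0.24). Levels of miR-199a-3p were 8.03, 8.29 and 19.1 CPM under LPS + GAS and 7.36, 4.82 and 6.84 CPM under LPS. LPS + GAS replicate 3 thus stood well above the others, and another tested miRNA had values equal to those of miR-199a-3p.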

How the data were processed

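Small RNA libraries (BGISEQ-500) were made from hippocampus. The authors deposited a single table of 1448 mature miRNAs with unnormalized read counts for each library and with exp values, whole-number counts never above the read counts, whose making is not described. The deposited table also holds the authors' group averages and DESeq2 comparisons, which were not used. The submitters' processing notes name GRCm38.p6, and the aligner, counter and miRBase release are not given in the sources used. Sequences and coordinates are from RefSeq (GRCm38.p6), where the 5 members and 2 further 5p arms all matched, and annotation is from GENCODE M21.

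The read counts were tested with edgeR 4.0.16 under R 4.3.3. A miRNA was kept if 3 or more libraries had 10 or more reads of it (628), TMM factors were computed, and the 9 libraries were fitted together with glmQLFit and tested with glmQLFTest, with Benjamini-Hochberg adjustment over all 628. Alternatives used DESeq2 1.42.0 and limma 3.58.1. Steps were tested on simulated data. The same-numbered libraries of LPS + GAS and saline deviated together in all 3 pairs (correlations 0.296 to 0.370), whereas correlations were −0.284 to 0.317 in LPS vs saline and −0.274 to 0.047 in LPS + GAS vs LPS. This rests on the data alone. Differently numbered libraries were not correlated, and deviations from a mean of 3 libraries are not independent, so these correlations do not show a pairing. Beside markers of cell types, the named miRNAs are the members, their 5p partners, the 3 nearest to each 3p member and the extremes of a list of matrix and fibrosis miRNAs. A further list is not reported here. Members and lists were chosen with earlier results of these data known.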

Additional observations from a re-analysis of the deposited data

How the results depend on the processing

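The count of members called remained 0 of 5 in all 3 comparisons under every alternative run: scaling by DESeq2's size factors, testing without a filter, a minimum of 50 reads, DESeq2's Wald test, limma-voom, the replicate block, only the 2 groups compared, the exp values, no minimum fold change and each library left out in turn. Over 270 alternative values of the members' log2 fold changes the largest absolute value was 0.28 and the lowest adjusted p 0.809. The sign held in 226 and turned in 44. All 15 fitted changes of the members were under their standard error, whether or not the sign turned. These values include fits of added reads (miR-29a-3p with miR-29c-3p, and all 3p members), set against each member that was added. Such pooled values are not values of a single member. With the replicate number as a block, miR-29c-3p had 0.13 in LPS + GAS vs saline, and no call changed. Over all miRNAs, the count in LPS vs saline rose from 0 to 2 with no filter and to 1 by DESeq2's Wald test, and with libraries left out it ran from 0 to 1 there (1 without LPS replicate 2 and without LPS + GAS replicate 3) and in LPS + GAS vs LPS (1 without LPS replicate 2). Depth limits miR-29a-5p, with 53 to 84 reads.

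In LPS vs saline, the sign turned for miR-29a-5p to 0.046 with DESeq2's size factors, 0.032 with no filter, 0.022 with at least 50 reads, 0.045 by DESeq2, 0.0082 by limma-voom, 0.0041 with the replicate block, 0.039 with only 2 groups and 0.047 with exp values. For miR-29c-5p it turned to 0.017 with DESeq2's size factors, 0.0023 with no filter, 0.017 by DESeq2, 0.010 with only 2 groups and 0.012 with exp values. MiR-29c-3p had −0.0082 by limma-voom. The reads of the 3p members added together had 0.023, a pooled value that is of opposite sign to the −0.095 of miR-29b-3p alone. The cause was not tested. With each library left out, the ranges in LPS vs saline were −0.064 to 0.20 for miR-29a-3p, −0.24 to 0.033 for miR-29b-3p, −0.095 to 0.19 for miR-29c-3p, −0.14 to 0.18 for miR-29a-5p and −0.14 to 0.086 for miR-29c-5p. In LPS + GAS vs LPS they were −0.077 to 0.17 for miR-29a-3p, 0.068 to 0.28 for miR-29b-3p, −0.0065 to 0.23 for miR-29c-3p, −0.12 to 0.14 for miR-29a-5p and −0.17 to 0.039 for miR-29c-5p. In LPS + GAS vs saline they were 0.033 to 0.23 for miR-29a-3p, −0.098 to 0.17 for miR-29b-3p, 0.11 to 0.27 for miR-29c-3p, −0.13 to 0.21 for miR-29a-5p and −0.23 to 0.047 for miR-29c-5p.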

Other observations

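The exp values, which the comparisons of read counts did not use, fell furthest below the read counts for the most abundant member. For miR-29a-3p they were 76.4% to 82.3% of the read counts, for miR-29c-3p 90.6% to 93.2%, and for miR-29c-5p 98.9% to 99.6%. The 3p to 5p ratio of miR-29a would therefore be lower on the exp values.

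Within groups, the members varied less than the median miRNA within 3-fold of their own level. The spread on the log2(CPM + 1) scale was 0.20 for miR-29c-3p against a median of 0.26 over 72 miRNAs, and 0.18 for miR-29c-5p against 0.26 over 140.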
